A study of Mus musculus with 4 samples.

Results

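The AP-1 and early injury transcription factors examined here were 10 genes, Fos, Fosl2, Jun, Junb, Jund, Atf3, Egr1, Myc, Runx1 and Klf6, taken by name from a count matrix of 22574 genes, and all 10 were detected. Single-nucleus RNA sequencing (snRNA-seq) of neonatal mouse hearts gave 8585 cardiomyocyte nuclei in 4 libraries, each made from the pooled tissue of 4 to 6 hearts of 1 genotype. All animals carried loxP-flanked Nrf1 alleles (Nrf1 fl/fl, gene symbol Nfe2l1) on a C57BL/6 background. The KO animals also carried αMHC-Cre, a Cre recombinase driven by a promoter active in cardiomyocytes, and the WT animals did not. Pups had myocardial infarction (MI) by ligation of the left coronary artery at postnatal day 3, or Sham surgery without ligation, and the methods place collection of the tissue below the ligation plane 1 day later. The groups are labelled WT-Sham, WT-MI, KO-Sham and KO-MI, with 1 library each. There were therefore no replicates, no difference was tested, and every interval below covers counting error only. The question addressed was how the RNA of each factor differed between MI and Sham within the cardiomyocyte populations named in the deposited annotation as CM1, CM4 and CM5.

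AP-1 is a dimer of basic leucine zipper proteins. Its Fos proteins bind DNA only with a Jun partner, whereas Jun proteins can also pair with each other, and Atf3, a member of the ATF/CREB family, forms dimers with Jun proteins or with itself. Fos, Junb, Atf3, Egr1 and Myc are classical immediate early or early response genes, which are transcribed from pre-existing signalling proteins within a short time of a growth or stress signal. Jund is known as a Jun protein of resting cells, Runx1 as a factor of blood development that reappears in stressed heart muscle, and Klf6 as a zinc finger factor induced by tissue injury.

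The libraries labelled WT-Sham, WT-MI, KO-Sham and KO-MI held 1406, 2003, 3328 and 1848 nuclei and 4984625, 7955986, 9106522 and 7359887 unique molecular identifiers (UMIs, counts of captured RNA molecules), with median UMIs per nucleus of 3553.5, 3951, 2572 and 3959. Of 8576 distinct cell barcodes, 9 occurred in more than 1 library. All 10 genes of a cardiomyocyte marker list were detected in each library of CM1, CM4 and CM5. The targeted gene Nfe2l1 gave 62.2 CPM (counts per 1000000 UMIs) in the library labelled WT-Sham and 50.5 CPM in KO-Sham, but 47.4 CPM in WT-MI and 55.3 CPM in KO-MI. After MI the KO label thus had the higher level of the targeted gene, and since the counts do not say whether a UMI came from the deleted exons, libraries are named by their labels throughout. UMIs of 12 myeloid genes, which mark infiltrating blood-borne immune cells, made up 137 CPM of CM1 in the library labelled WT-Sham, 614 CPM in WT-MI, 99.8 CPM in KO-Sham and 311 CPM in KO-MI. These were nuclei kept as cardiomyocytes, and 87.8% of CM1 nuclei of the library labelled WT-MI held at least 1 such UMI, against 39.5% in WT-Sham.

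The 10 factors were sparsely captured. Over all nuclei Jund gave 1220 UMIs, Jun 1059 and Klf6 908, while Atf3 gave 330, Fosl2 319, Junb 297, Egr1 188, Myc 118, Runx1 107 and Fos 73. Both MI libraries had more CM5 nuclei than the Sham libraries, with 339 of 2003 nuclei in WT-MI and 355 of 1848 in KO-MI against 89 of 1406 in WT-Sham and 234 of 3328 in KO-Sham. The CM5 sum of the library labelled WT-Sham held only 325218 UMIs, so that 3 UMIs, the limit that a count of 0 allows, were worth 9.22 CPM there. The populations came from clustering on the whole transcriptome, and the levels in CM5 beside those in CM1 are given as a description.

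**Figure D1:**
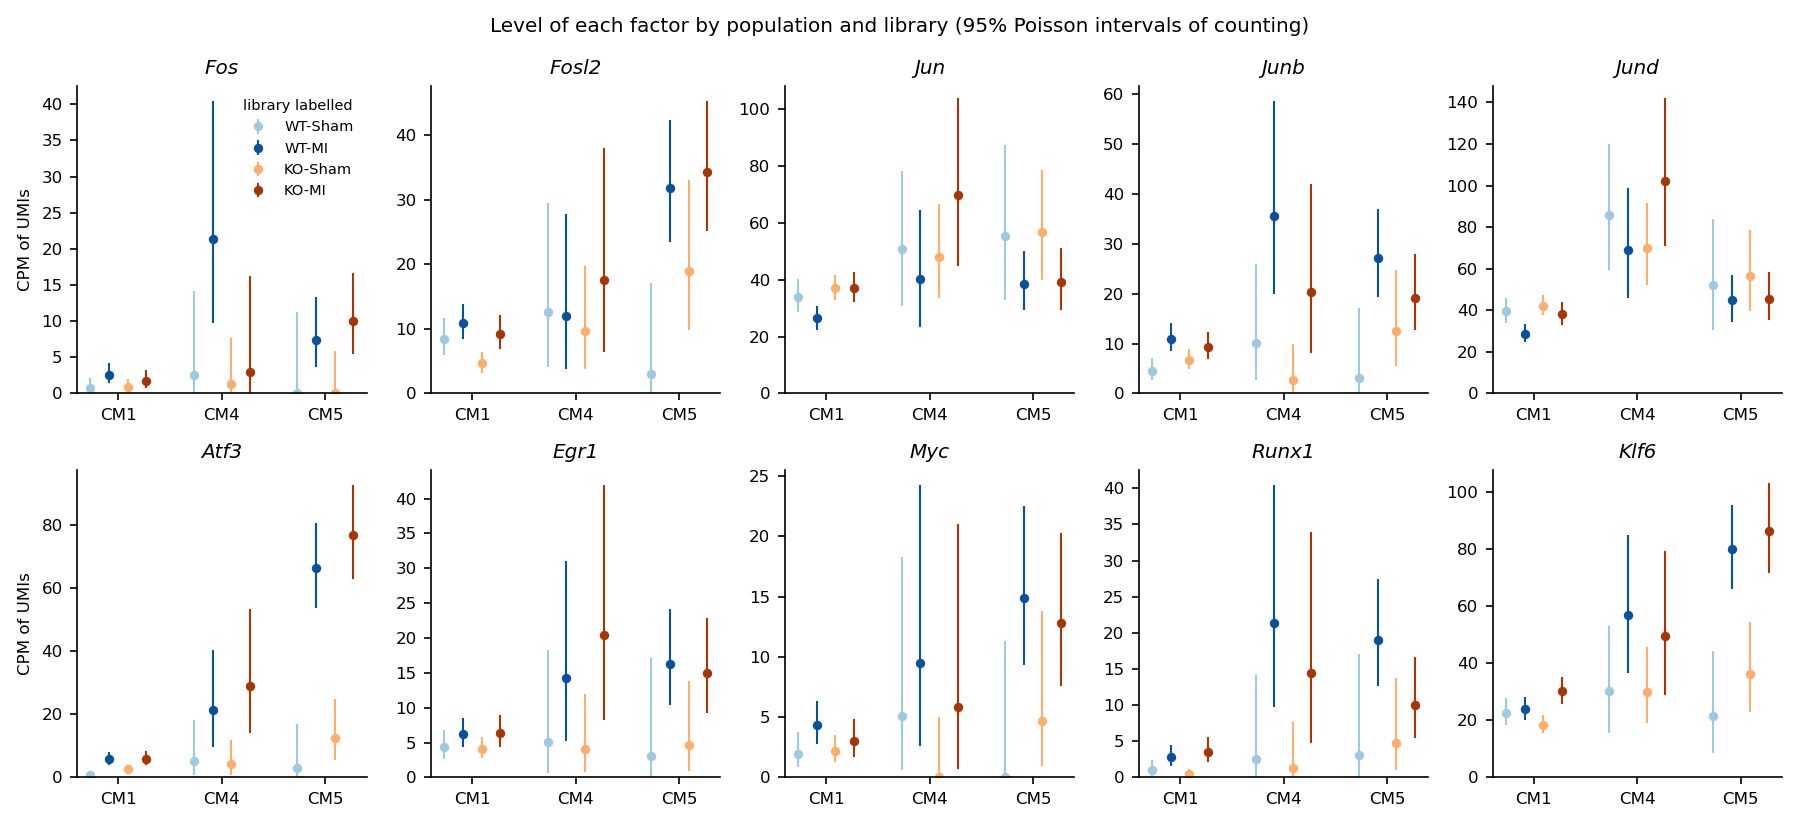
CPM of each of the 10 factors (y axis, its own range per panel) in CM1, CM4 and CM5 (x axis) of the 4 libraries, with exact 95% Poisson intervals of counting. Atf3 and Klf6 stand highest in CM5 of both MI libraries, at 66.3 and 76.9 CPM and at 79.9 and 86.2 CPM, while Jun and Jund do not stand higher in CM5 after MI than after Sham surgery.

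Atf3 showed the clearest difference between MI and Sham. Atf3 (chr1:191170296-191218039, GRCm38, minus strand) codes for a stress-induced factor of the ATF/CREB family. In CM5 its level was 3.07 CPM in the library labelled WT-Sham, from 1 UMI, and 66.3 CPM in WT-MI, from 98 UMIs. It was 12.6 CPM in the library labelled KO-Sham, from 8 UMIs, and 76.9 CPM in KO-MI, from 108 UMIs. Both MI values lay far above both Sham values, and the 4 counting intervals of MI and Sham did not meet. The log2 ratio of MI over Sham was 4.43 (95% interval 1.92 to 9.75) for the WT labels and 2.61 (1.58 to 3.86) for the KO labels. Among the genes of like depth, with 20 to 200 UMIs over both sums, 5 of 6857 had a higher ratio in the WT-labelled pair and 100 of 7200 in the KO-labelled pair. Genes with no Sham UMI entered at 3 UMIs, while Atf3 in WT-Sham entered with its 1 UMI. That rule can place such genes lower, so the rank of Atf3, above all for the WT labels, is partly set by it.

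In CM1 the level of Atf3 was lower than in CM5 in both MI libraries and differed between MI and Sham in the same direction. It was 0.723 CPM in the library labelled WT-Sham, 5.69 CPM in WT-MI, 2.59 CPM in KO-Sham and 5.82 CPM in KO-MI, from 3, 33, 19 and 31 UMIs. The log2 ratio of MI over Sham was 2.98 (1.30 to 5.33) for the WT labels and 1.17 (0.30 to 2.07) for the KO labels. The MI levels of both genotype labels were close, and the library labelled WT-Sham was the lowest of the 4. Of the 330 Atf3 UMIs in the data, 62.4% came from CM5 nuclei of the MI libraries. They were not spread evenly, since 53 of 339 CM5 nuclei of WT-MI and 59 of 355 of KO-MI held any, and 1 nucleus of KO-MI held 24. Without the 10 nuclei of most Atf3 UMIs in each sum, no Atf3 UMI was left in CM5 of either Sham library. The log2 ratio was then at least 1.80 for the WT labels and at least 3.05 for the KO labels. Only 1 CM5 nucleus of WT-Sham and 5 of KO-Sham held Atf3, so this removal had to empty both Sham sums. The 2 bounds cannot be read further.

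The start regions of the members were searched for the letters of elements that bind factors of this group or of the pathway the study targets. Fos, Atf3 and Klf6 are printed below because their windows held such a match, so that choice was made on the result. RefSeq windows of 250 bases before to 50 after a start (GRCm38.p6) were used for 8 of the 10 genes, 9 windows in all, and none was used for Egr1 and Myc. The Jund window ended at 70697788, before the annotated gene start at 70698949. The Atf3 window lay inside the annotated gene, which begins at 191218039 on the minus strand. The Fosl2 window began at 32136222, inside the annotated gene, which starts at 32135801. The second Runx1 window ended at 92697579, inside the annotated gene, which begins at 92826149 on the minus strand. None of these windows therefore held the annotated gene start. The motifs searched on both strands were TATAAA (the TATA box), TGACGT (the core of the cyclic AMP response element, bound by ATF/CREB dimers), TGANTCA (the AP-1 site), TGACNNNGC (the core of the antioxidant response element, bound by Nrf1 with a small Maf partner) and the serum response element. In the 3 stretches of 200 bases below, which end at the base before the RefSeq start, capitals mark a match on either strand, and no matches overlapped.
Fos, chr12:85473690-85473889, plus strand: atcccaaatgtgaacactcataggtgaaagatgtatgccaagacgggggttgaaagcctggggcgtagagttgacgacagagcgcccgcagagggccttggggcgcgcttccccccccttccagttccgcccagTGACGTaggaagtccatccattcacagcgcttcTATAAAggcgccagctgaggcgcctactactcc
Atf3, chr1:191183334-191183533, minus strand: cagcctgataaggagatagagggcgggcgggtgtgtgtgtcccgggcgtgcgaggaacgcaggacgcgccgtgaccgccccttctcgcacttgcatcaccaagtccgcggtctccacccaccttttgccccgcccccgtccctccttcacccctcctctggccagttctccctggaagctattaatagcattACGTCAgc
Klf6, chr13:5861289-5861488, plus strand: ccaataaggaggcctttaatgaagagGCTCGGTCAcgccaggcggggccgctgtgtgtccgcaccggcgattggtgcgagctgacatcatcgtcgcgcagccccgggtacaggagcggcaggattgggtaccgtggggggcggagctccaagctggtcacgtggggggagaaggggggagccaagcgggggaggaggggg
The TGACGT core stood in the Fos window from position -66 and, on the opposite strand, in the Atf3 window from position -8, counted from the start site, and 7.51% of 32851 windows in the table held it. The antioxidant response core stood in the Klf6 window only, from position -174 on the opposite strand, and 12.4% of all windows held one. TATAAA was found in the Fos window from -33 and in the Junb window from 1 (13.6% of all windows), and TGANTCA (7.81%) and the serum response element (1.63%) in none of the 9. These are matches of letters, and no binding was measured.

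Klf6 (chr13:5861482-5870394, plus strand) differed between MI and Sham mainly in CM5. Its CM5 level was 21.5 CPM in the library labelled WT-Sham, 79.9 CPM in WT-MI, 36.2 CPM in KO-Sham and 86.2 CPM in KO-MI, from 7, 118, 23 and 121 UMIs. Both MI values again lay above both Sham values, with log2 ratios of 1.89 (0.80 to 3.24) for the WT labels and 1.25 (0.60 to 1.96) for the KO labels. A UMI of Klf6 was present in 27.4% of CM5 nuclei of WT-MI and 26.2% of KO-MI, against 7.87% of WT-Sham and 8.97% of KO-Sham. In CM1 the 4 levels were 22.6 CPM in WT-Sham, 24.0 CPM in WT-MI, 18.4 CPM in KO-Sham and 30.3 CPM in KO-MI. The CM1 log2 ratio was 0.08 (-0.31 to 0.48) for the WT labels, an interval that leaves out a 2-fold difference, and 0.72 (0.38 to 1.06) for the KO labels.

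Of the Fos family, Fosl2 (chr5:32135801-32157842, plus strand) codes for Fra-2, a Fos protein made with a delay after a stimulus. Its CM5 level was 3.07 CPM in the library labelled WT-Sham, from 1 UMI, 31.8 CPM in WT-MI, from 47 UMIs, 18.9 CPM in KO-Sham, from 12 UMIs, and 34.2 CPM in KO-MI, from 48 UMIs. The MI libraries were close to each other. The point values of the Sham libraries were not, but the interval of their log2 ratio of KO over WT, 2.62 (-0.14 to 8.04), included 0. The log2 ratio of MI over Sham was 3.37 (0.82 to 8.70) for the WT labels and 0.86 (-0.08 to 1.90) for the KO labels. Without the 10 nuclei of most Fosl2 UMIs in each sum the KO-labelled value was 3.91. Only 11 CM5 nuclei of KO-Sham held Fosl2, against 44 of KO-MI, so this removal by itself raises the ratio. In CM1 the order of the libraries was different. Fosl2 stood at 8.43 CPM in WT-Sham, 10.9 CPM in WT-MI, 4.64 CPM in KO-Sham and 9.21 CPM in KO-MI, with log2 ratios of MI over Sham of 0.37 (-0.25 to 1.01) and 0.99 (0.33 to 1.67).

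Fos itself (chr12:85473890-85477273, plus strand), the prototype immediate early gene, was near the limit of detection. It gave no UMI in CM5 of either Sham library, and 11 UMIs (7.45 CPM) in WT-MI and 14 UMIs (9.97 CPM) in KO-MI. Against a Sham limit of 3 UMIs, the KO-labelled ratio was at least 2.11-fold, while the limit in the small WT-Sham sum, 9.22 CPM, lay above the MI level and gave no bound over 1. In CM1 Fos gave 3, 15, 7 and 9 UMIs in WT-Sham, WT-MI, KO-Sham and KO-MI, with log2 ratios of 1.84 (0.02 to 4.27) and 0.83 (-0.77 to 2.49). Fewer nuclei with Fos RNA and less RNA per nucleus cannot be told apart at this depth, since no CM5 nucleus held more than 1 Fos UMI.

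The Jun family divided into Junb on one side and Jun and Jund on the other. Junb (chr8:84974484-84978718, minus strand), an early response Jun protein, gave in CM1 4.58 CPM in the library labelled WT-Sham, 11.0 CPM in WT-MI, 6.68 CPM in KO-Sham and 9.39 CPM in KO-MI. Both MI levels were the higher ones, with log2 ratios of 1.27 (0.51 to 2.09) for the WT labels and 0.49 (-0.11 to 1.09) for the KO labels. In CM1 of KO-Sham 1 nucleus held 11 of the 49 Junb UMIs. In CM5 Junb gave 1, 40, 8 and 27 UMIs, or 3.07, 27.1, 12.6 and 19.2 CPM, in the same order of libraries, with log2 ratios of 3.14 (0.58 to 8.48) and 0.61 (-0.57 to 1.96).

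Jun (chr4:95049034-95052222, minus strand), the founding partner of Fos, was not higher after MI in CM1 or CM5 beyond counting error. Its CM1 level was 34.0 CPM in the library labelled WT-Sham, 26.4 CPM in WT-MI, 36.9 CPM in KO-Sham and 37.2 CPM in KO-MI, and the WT-MI value was the lowest. The log2 ratio of MI over Sham was -0.36 (-0.70 to -0.02) for the WT labels. For the KO labels it was 0.01 (-0.26 to 0.28), and it changed sign with the scaling, to -0.05 with TMM factors. In CM5 Jun stood at 55.3 CPM in WT-Sham, 38.6 CPM in WT-MI, 56.7 CPM in KO-Sham and 39.2 CPM in KO-MI. Here both MI values were below both Sham values, although both intervals of the log2 ratio, -0.52 (-1.31 to 0.33) and -0.53 (-1.16 to 0.12), included 0.

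Jund (chr8:70698949-70700616, plus strand) followed Jun closely. In CM1 its level was 39.5 CPM in the library labelled WT-Sham, 28.8 CPM in WT-MI, 42.1 CPM in KO-Sham and 38.1 CPM in KO-MI, from 164, 167, 309 and 203 UMIs. The lowest value was again that of WT-MI, with a log2 ratio of -0.46 (-0.78 to -0.14) for the WT labels and -0.14 (-0.41 to 0.12) for the KO labels. In CM5 the ratios were -0.23 (-1.01 to 0.64) and -0.31 (-0.92 to 0.32). For the WT labels in CM5, without the 10 nuclei of most UMIs of each gene, the ratio was 0.66 for Jun and 1.01 for Jund. Each gene was found in only 15 of these nuclei of WT-Sham, against 50 (Jun) and 60 (Jund) of WT-MI. Taking 10 from each sum therefore raises the ratio by itself, and the change of sign cannot be read further. With the most UMIs of the 10 factors, Jun and Jund were the members whose ratios were measured most closely, and in CM1 of both label pairs and CM5 of both their intervals left out a 2-fold higher level after MI.

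The other three factors had point values above 0 in CM1 and CM5, each from few UMIs, and not under every alternative. Egr1, a zinc finger factor of the immediate early class, gave 18, 36, 30 and 34 UMIs in CM1 of WT-Sham, WT-MI, KO-Sham and KO-MI, or 4.34, 6.21, 4.09 and 6.39 CPM, with log2 ratios of 0.52 (-0.34 to 1.42) and 0.64 (-0.11 to 1.40). In CM5 it gave 1, 24, 3 and 21 UMIs, or 3.07, 16.2, 4.72 and 15.0 CPM, and ratios of 2.40 (-0.22 to 7.76) and 1.66 (-0.08 to 4.05). Its intervals therefore included 0 in both populations, and in CM1 of the WT labels its ratio was -0.37 with nuclei thinned to 1000 UMIs. Myc (chr15:61985391-61990374, plus strand), a basic helix-loop-helix factor of cell growth, had CM1 ratios of 1.16 (-0.03 to 2.52) from 25 UMIs against 8 and 0.46 (-0.63 to 1.56) from 16 against 16. The first of these was -0.73 in nuclei with no UMI of the myeloid list, from 1 UMI against 6. In CM5 Myc gave 0 UMIs in WT-Sham and 22 in WT-MI, a level at least 1.61-fold higher, and 3 in KO-Sham and 18 in KO-MI, a log2 ratio of 1.44 (-0.34 to 3.85).

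Runx1 (chr16:92601466-92826149, minus strand) was close to absent in CM1 of the Sham libraries, with 4 UMIs in WT-Sham and 3 in KO-Sham. In the MI libraries it gave 16 UMIs (2.76 CPM) in WT-MI and 19 UMIs (3.57 CPM) in KO-MI. The log2 ratio was 1.52 (-0.11 to 3.56) for the WT labels and 3.13 (1.36 to 5.53) for the KO labels. In CM5 the levels were 3.07 CPM in WT-Sham, 19.0 CPM in WT-MI, 4.72 CPM in KO-Sham and 9.97 CPM in KO-MI, with ratios of 2.62 (0.03 to 7.98) and 1.08 (-0.76 to 3.52). The larger ratio was in the KO-labelled pair in CM1 and in the WT-labelled pair in CM5, and the difference was not tested.

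**Figure D2:**
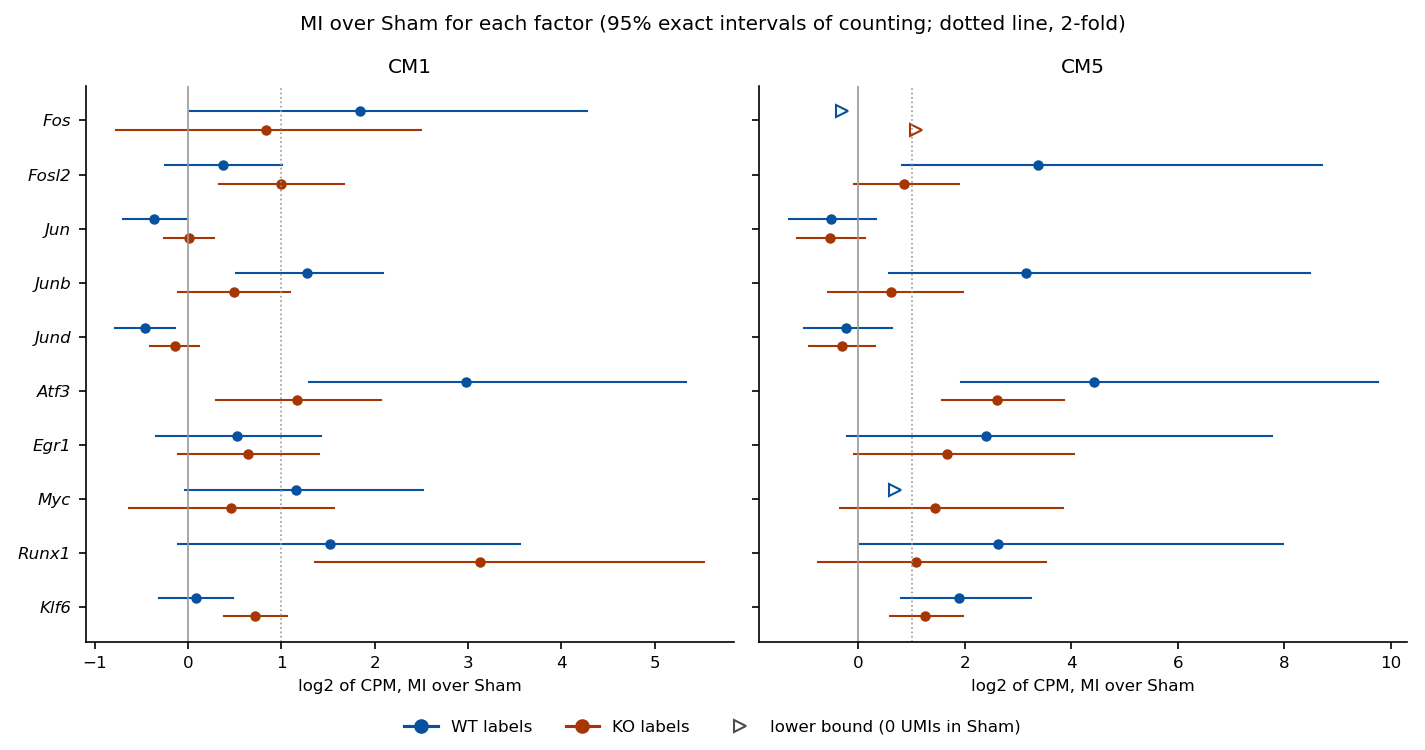
Log2 ratio of CPM of MI over Sham (x axis) for each factor (y axis) in CM1 and CM5, for the WT labels (blue) and KO labels (brown), with exact 95% intervals of counting; open triangles are lower bounds where the Sham sum had 0 UMIs, and the x axes of the panels differ. Atf3 lies to the right of 0 in all 4 pairs, from 1.17 to 4.43, and Jun and Jund lie at or to the left of 0.01.

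Read against all genes, the members above the 2-fold line were as follows. In CM1, with at least 20 UMIs over both sums, 9 of the 10 factors could be compared for each label pair and Fos could not. For the WT labels 4 of the 9 (Junb, Atf3, Myc and Runx1) were at least 2-fold higher after MI, where 4.8% of 12738 genes were, and 7.65% of those with 20 to 200 UMIs. For the KO labels 2 of the 9 (Atf3 and Runx1) were, against 4.36% of 13152 genes and 7.24% of those with 20 to 200 UMIs. In CM5 9 factors for the WT labels and 8 for the KO labels reached 20 UMIs. For the WT labels 6 of 9 (Fosl2, Junb, Atf3, Egr1, Runx1 and Klf6) were at least 2-fold higher, against 12.5% of 8361 genes and 12.7% of those with 20 to 200 UMIs, and for the KO labels 4 of 8 (Atf3, Egr1, Myc and Klf6), against 12.8% of 8929 genes and 13.3% of the sparser ones. None was 2-fold lower. In the nuclei with the commonest transferred label of CM5, 4 of 8 factors for the WT labels and 2 of 6 for the KO labels were past 2-fold higher. For the WT labels there, Egr1 and Runx1 had only a lower bound under 2-fold, so 4 can be too few. A Sham sum of 0 was counted as 3 UMIs, as for Myc in CM5 of the WT labels. The member counts and the shares of all genes past 2-fold can therefore be too low. Several factors reached 20 UMIs only through the MI library, where they were high, so these counts describe the members and do not stand as support.

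The median log2 ratio of the factors that could be compared was 0.52 (WT labels) and 0.64 (KO labels) in CM1, where the median of all genes was -0.07 and 0.03. In CM5 it was 2.40 and 1.05, where the median of all genes was -0.04 and 0.09. Without a minimum of UMIs, all 10 factors gave a ratio or bound in each of these pairs, and the medians were 0.84 and 0.68 in CM1 and 2.15 and 1.08 in CM5. The CM5 median of the WT labels was lower, at 0.79, in the nuclei with the commonest transferred label, at 0.83 with a minimum of 50 UMIs and at 1.01 without the 10 highest nuclei of each sum. Behind 0.79 and 1.01 several members had only a lower bound, from Sham sums with no UMI, so these medians can be too low. In CM5 of the WT labels another scaling moved the share of higher among all genes past 2-fold from 53.7% to 67.1% with TMM factors and 66.1% with size factors, and TMM raised each log2 ratio there by 0.17.

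**Figure D3:**
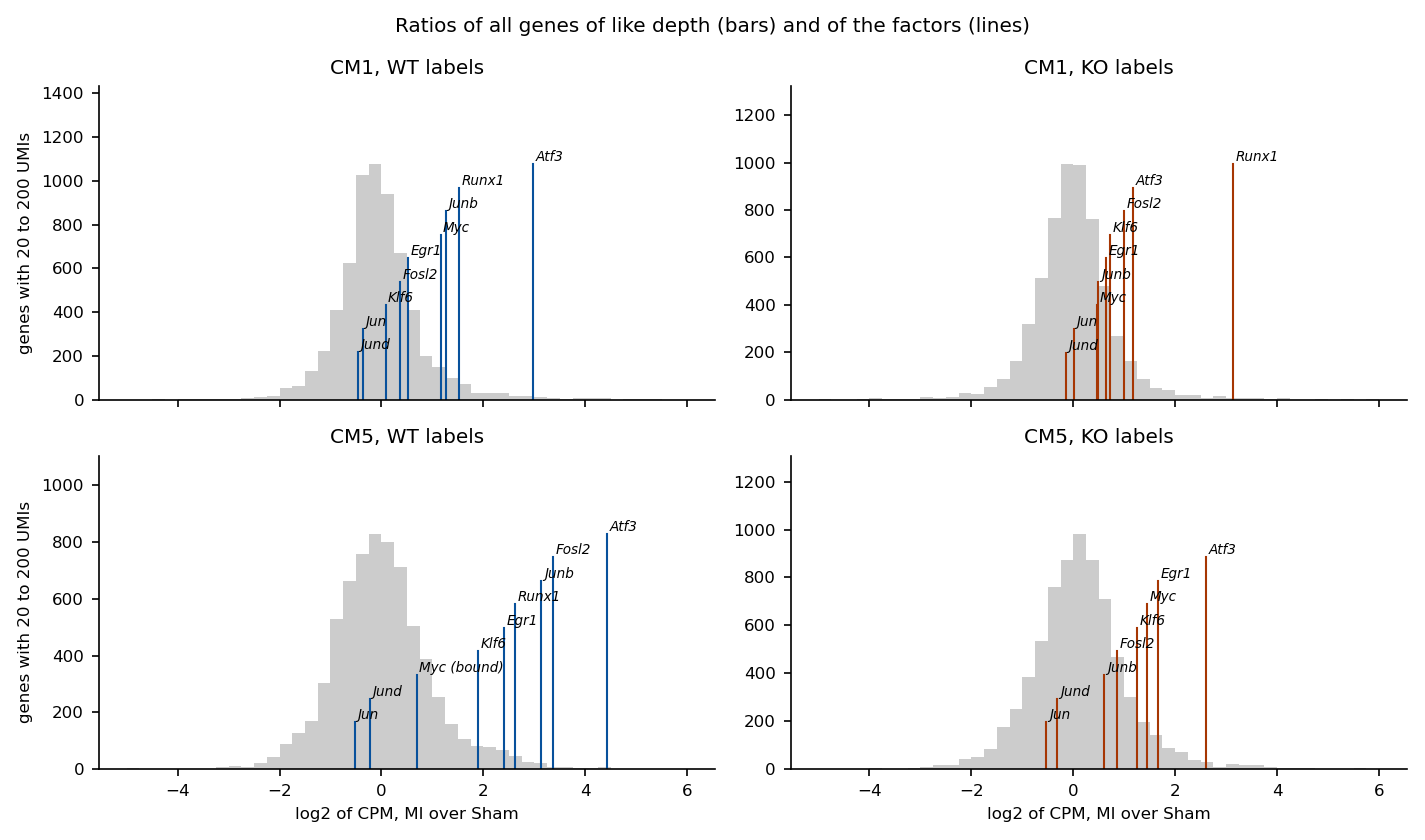
Number of genes with 20 to 200 UMIs (y axis, grey bars) by log2 ratio of CPM of MI over Sham (x axis, bins of 0.25, the end bins holding values beyond) in CM1 and CM5 of each label pair, with labelled lines at the ratios of the factors that reached 20 UMIs; line heights carry no value. Atf3 lies in the right tail in CM5 of the WT labels at 4.43, and Jun and Jund lie within the bulk of genes in all 4 panels.

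In CM4, the smallest of the populations compared, only Jun, Jund and Klf6 reached 20 UMIs. Jund gave 86.0 CPM in the library labelled WT-Sham, 68.8 CPM in WT-MI, 69.8 CPM in KO-Sham and 102 CPM in KO-MI, with log2 ratios of -0.32 (-1.09 to 0.44) and 0.54 (-0.12 to 1.19). Jun gave -0.33 (-1.35 to 0.68) and 0.54 (-0.27 to 1.33), and Klf6 0.91 (-0.15 to 2.04) and 0.72 (-0.29 to 1.70). None of these 3 was at least 2-fold higher in either pair, where 13.3% of 5777 genes (13.8% of the sparser) were for the WT labels and 6.42% of 6744 (6.75%) for the KO labels. Among the sparser factors, Atf3 gave 9 UMIs in WT-MI against 2 in WT-Sham, and 10 in KO-MI against 3 in KO-Sham. Junb gave 15 against 4 and 7 against 2, and Runx1 9 against 1 and 5 against 1, in the same pairs. Below the minimum of 20 UMIs, log2 ratios for the WT and KO labels were 2.08 (-0.19 to 5.33) and 2.82 (0.87 to 5.32) for Atf3. They were 1.82 (0.17 to 3.86) and 2.90 (0.50 to 6.20) for Junb, and 3.08 (0.23 to 8.53) and 3.41 (0.25 to 8.97) for Runx1. For Fosl2 they were -0.09 (-2.21 to 2.03) and 0.87 (-0.98 to 2.66). Fos gave 9 UMIs in WT-MI, 4 of them in 1 nucleus, and 1 in each other library. In the WT-labelled pair of CM4 the median of all genes was 0.16 and TMM lowered each ratio by 0.17, and the share of higher among genes past 2-fold was 70.3% as scaled to the total, 51.6% with TMM and 52.3% with size factors.

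The KO and WT labels were set side by side within each surgery. After MI, Atf3 did not differ beyond counting error, with a log2 ratio of KO over WT of 0.21 (-0.19 to 0.62) in CM5 and 0.03 (-0.72 to 0.79) in CM1. Klf6 gave 0.11 (-0.27 to 0.49) in CM5 and Fosl2 0.10 (-0.51 to 0.72), intervals that leave out a 2-fold difference either way. In CM1 of the MI libraries Jun and Jund were higher for the KO label, by 0.50 (0.18 to 0.81) and 0.41 (0.10 to 0.71), and Nfe2l1 itself differed in the same direction there, by 0.39 (0.14 to 0.63). After Sham surgery Atf3 was higher for the KO label in CM1, by 1.84 (0.08 to 4.24), from 19 UMIs against 3, and Fosl2 was lower, at -0.86 (-1.59 to -0.14). Runx1 in CM5 after MI was lower for the KO label in its point value, -0.93 (-1.97 to 0.05). With 1 pool of hearts per group, the genotype label, the pool and the library cannot be told apart.

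The myeloid genes were also higher in the MI libraries, and myeloid cells are known to express Fos, Junb, Atf3, Klf6 and Runx1. In CM1, 11 of 12 myeloid genes for the WT labels and 11 of 11 with enough UMIs for the KO labels were at least 2-fold higher after MI, with none of the 12 at 0 in any library. In CM5 Il1b, Cd14, Itgam or Adgre1 were at 0 in some libraries, and the list was otherwise detected. The summed level of the list in CM5 was 126 CPM in WT-Sham, 539 CPM in WT-MI, 112 CPM in KO-Sham and 335 CPM in KO-MI, and in CM4 230, 1111, 138 and 559 CPM. The myeloid level in CM5 beside that in CM1 was 539 against 614 CPM in WT-MI and 335 against 311 CPM in KO-MI, and that of Atf3 was 66.3 against 5.69 CPM and 76.9 against 5.82 CPM. For each 1000 myeloid UMIs there were 9.27 Atf3 UMIs in CM1, 19.2 in CM4 and 123 in CM5 of WT-MI, and 18.7, 52.1 and 229 in KO-MI. For Klf6 the same numbers were 39.0, 51.3 and 148 in WT-MI and 97.3, 88.5 and 257 in KO-MI. Other markers also differed in CM5. The cardiomyocyte list summed to 37919 CPM in WT-Sham, 26697 CPM in WT-MI, 38576 CPM in KO-Sham and 26929 CPM in KO-MI, with 3 of 10 genes at least 2-fold lower after MI in each pair. Red blood cell genes summed to 1916, 3693, 1716 and 2192 CPM in the same order, with 2 of 4 at least 2-fold higher for the WT labels and 0 of 4 for the KO labels. The part of these differences in the values of the 10 factors was not tested.

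Nuclei with no UMI of the myeloid list were then taken alone. They were 664 of the CM1 nuclei of WT-Sham, 173 of WT-MI, 2005 of KO-Sham and 426 of KO-MI, and in CM5 54, 50, 175 and 113. In these CM5 nuclei Atf3 stood at 5.12 CPM in WT-Sham, from 1 UMI, 48.4 CPM in WT-MI, from 10 UMIs, 17.2 CPM in KO-Sham, from 8 UMIs, and 49.4 CPM in KO-MI, from 22 UMIs. The log2 ratios of MI over Sham were 3.24 (0.43 to 8.68) and 1.52 (0.30 to 2.90), both still above 0. Klf6 gave 1.73 (0.05 to 3.79) and 1.25 (0.42 to 2.14) in the same nuclei, close to its values in all CM5 nuclei. In CM1 Atf3 gave 3.66 (1.27 to 6.96), from 7 UMIs against 2, and 1.09 (-0.10 to 2.22). Junb in CM1 of the WT labels was 0.59 (-1.27 to 2.20) without myeloid UMIs, from 5 UMIs against 12, where it had been 1.27. Fosl2 in CM5 kept its ratio for the WT labels, 3.24 (0.43 to 8.68), but not for the KO labels, -0.09 (-1.56 to 1.36). Jun in CM5 of the KO labels was -1.34 (-2.49 to -0.29) in these nuclei. Klf6 in CM1 of the KO labels was 0.35 (-0.21 to 0.88), where it had been 0.72. Runx1 in CM1 of the KO labels was 4.48 (1.52 to 9.98), from 7 UMIs against 1. For the KO labels the interval for Fos in CM1 was -0.22 to 4.33, from 5 UMIs against 4, and Myc gave 2.65 (-0.40 to 8.17) in CM5, and for the WT labels these 3 factors gave at most 4 UMIs in each MI sum.

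**Figure D4:**
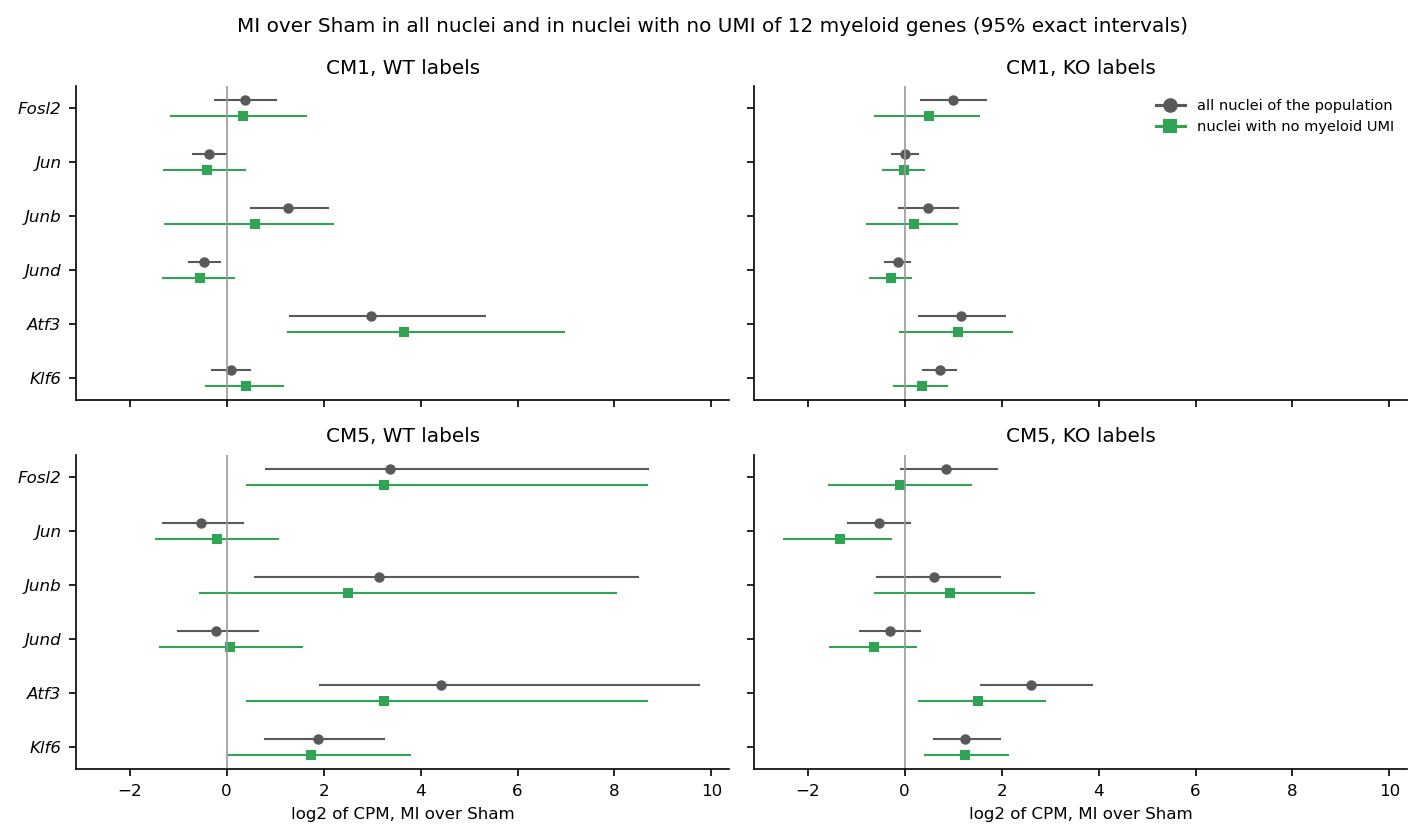
Log2 ratio of CPM of MI over Sham (x axis) for 6 factors (y axis) in CM1 and CM5 of each label pair, in all nuclei of the population (grey circles) and in nuclei with no UMI of 12 myeloid genes (green squares), with exact 95% intervals of counting. In CM5 Atf3 and Klf6 stay to the right of 0 in both sets of nuclei, from 1.52 to 4.43 and from 1.25 to 1.89.

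Counted by nuclei, each nucleus was thinned to 1000 UMIs so that deeper nuclei would not count for more, and the 8 factors other than Jun and Jund were pooled. In CM5 4.49% of nuclei (1.24 to 11.1) of the library labelled WT-Sham held a UMI of any of the 8, and 23.3% (18.9 to 28.2) of WT-MI did. The shares were 8.12% (4.96 to 12.4) in KO-Sham and 18.3% (14.4 to 22.7) in KO-MI. In CM4 they were 5.88%, 14.7%, 5.98% and 14.4%, and in CM1 4.28%, 6.29%, 3.67% and 7.42%, in the order WT-Sham, WT-MI, KO-Sham and KO-MI. The MI shares were the higher ones in all 3 populations, with the smallest gap in CM1. Atf3 and Klf6 were found together in 21 of 339 CM5 nuclei of WT-MI, where the product of their shares gives 14.5, and in 20 of 355 of KO-MI, where it gives 15.5. Fos and Atf3 were found together in 6 nuclei of WT-MI (1.72 from the shares) and 3 of KO-MI (2.33). Deeper nuclei hold more of every gene, so co-detection above the product of shares is given as a description.

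**Figure D5:**
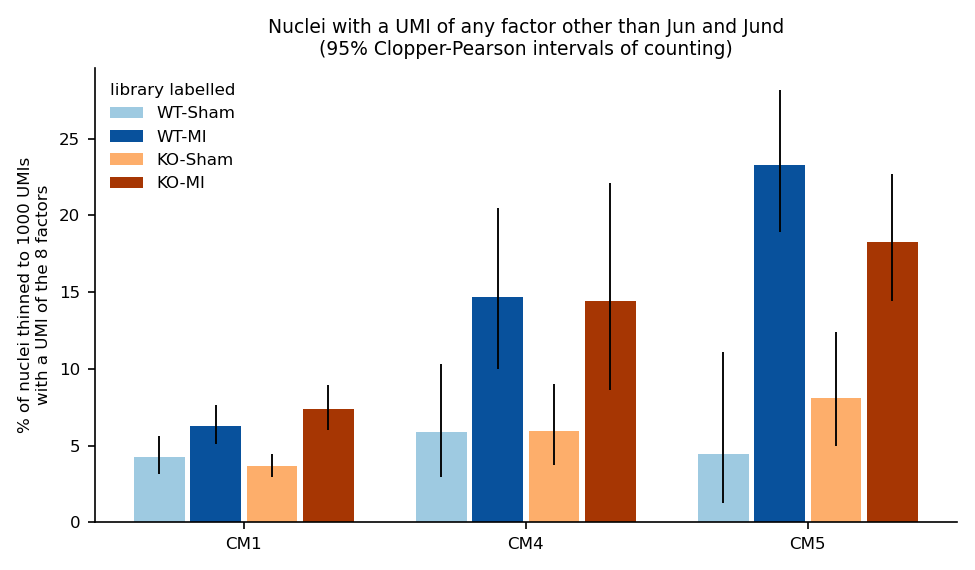
Share of nuclei, each thinned to 1000 UMIs, with at least 1 UMI of the 8 factors other than Jun and Jund (y axis, percent) in CM1, CM4 and CM5 (x axis) of the 4 libraries, with Clopper-Pearson 95% intervals. In CM5 the share is 4.49% in WT-Sham and 23.3% in WT-MI, and 8.12% in KO-Sham and 18.3% in KO-MI.

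Over all cardiomyocyte nuclei, part of the difference came with the larger share of CM5 in the MI libraries. Atf3 gave 1.40 CPM in the library labelled WT-Sham, 17.8 CPM in WT-MI, 3.40 CPM in KO-Sham and 20.4 CPM in KO-MI, a log2 ratio of 3.67 for the WT labels and 2.58 for the KO labels. With the populations of each MI library weighted by the shares of its Sham library, the ratios were 2.96 and 1.88. For Klf6 the same weighting took 0.61 to 0.36 and 1.01 to 0.79, and for Runx1 2.52 to 2.17 and 2.56 to 2.43. The deposited CM5 label also covered nuclei to which Seurat had transferred different reference labels, CM2 being the commonest. In the CM5 nuclei with that label Atf3 stood at 69.2 CPM in WT-MI and 89.5 CPM in KO-MI, and in those with the transferred label CM1 at 28.5 CPM (11.5 to 58.8) and 15.3 CPM (3.15 to 44.6). Of the CM5 Atf3 UMIs, nuclei with the transferred label CM2 held 81 of 98 in WT-MI and 102 of 108 in KO-MI. Of the CM5 UMIs of all genes they held 1171093 of 1477485 in WT-MI and 1140204 of 1403994 in KO-MI. In the Sham libraries Atf3 stood in nuclei of that label at 5.19 CPM (0.131 to 28.9) in WT-Sham and 21.2 CPM (9.13 to 41.7) in KO-Sham.

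The other genes of the pathway were described with 5 lists. Of 26 other AP-1 and ATF factors, 22 reached 20 UMIs in CM1, and 4 (WT labels) and 3 (KO labels) were at least 2-fold higher after MI, with median log2 ratios of 0.22 and 0.41. In CM5 5 of 16 and 9 of 17 were. The share over all genes was 4.8% and 4.36% in CM1 and 12.5% and 12.8% in CM5, which is the background for the lists that follow too. Maf, a large Maf factor also abundant in macrophages, had a CM1 ratio of 2.15 (1.18 to 3.28) for the WT labels and 0.32 (-0.47 to 1.10) for the KO labels. Cebpb, a leucine zipper factor of acute responses and of myeloid cells, gave 1.91 (1.33 to 2.52) and 1.01 (0.56 to 1.46). Crem, whose short product represses cyclic AMP responses, gave -0.54 (-0.88 to -0.20) and -0.36 (-0.67 to -0.06).

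Of 31 kinases and serum response factors upstream of the members, none of the 29 with enough UMIs was 2-fold higher or lower in CM1 in either pair, and the medians were -0.03 and 0.23. Srf, which binds the serum response element, gave 0.69 (-0.04 to 1.47) and 0.23 (-0.30 to 0.76), and the p38 kinase gene Mapk12 gave 0.44 (-0.27 to 1.17) and 0.52 (-0.07 to 1.12). Map2k6, an activating kinase of p38, was lower in both pairs, at -0.92 (-1.14 to -0.69) and -0.81 (-1.03 to -0.59). In CM5 2 of 25 and 2 of 26 genes of the list were past 2-fold higher and 2 lower in each pair, and Map2k6 had 2 UMIs in each MI library against 12 in WT-Sham and 22 in KO-Sham.

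Of the other early response genes and feedback inhibitors, 11 of 28 (WT labels) and 8 of 30 (KO labels) were at least 2-fold higher after MI in CM1 and 11 of 23 and 13 of 24 in CM5, and none was 2-fold lower in these pairs. Gadd45g, a growth arrest and stress gene, stood in CM5 at 6.15 CPM in WT-Sham, 156 CPM in WT-MI, 26.8 CPM in KO-Sham and 145 CPM in KO-MI, with log2 ratios of 4.66 (2.79 to 7.72) and 2.44 (1.73 to 3.25). Ier3, an early response gene of cell survival, gave 3.05 (2.11 to 4.19) and 2.65 (2.09 to 3.27) in CM5 and 1.42 (1.08 to 1.77) and 1.30 (1.03 to 1.57) in CM1. Zfp36l1, which promotes decay of early response RNAs, was lower in CM1, at -0.91 (-1.15 to -0.67) and -0.91 (-1.15 to -0.68).

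Of the relatives and partners of the EGR, KLF, RUNX and MYC members, 1 of 25 was past 2-fold higher in CM1 in each pair and 2 (WT labels) and 1 (KO labels) lower, with medians of -0.22 and -0.01. In CM5 4 of 18 and 4 of 19 were past 2-fold higher and none lower, with medians of 0.17 and 0.61. Klf7 had ratios of 0.89 (0.69 to 1.09) and 0.86 (0.69 to 1.03), Runx2, the bone-forming relative of Runx1, 0.78 (0.25 to 1.33) and 0.51 (0.07 to 0.96), and Klf2, a factor of blood vessel lining, -1.19 (-1.57 to -0.81) and -0.72 (-1.05 to -0.40). Among 34 injury genes of cardiomyocytes and AP-1 targets, 17 and 19 of 32 were at least 2-fold higher in CM1 and 23 and 23 of 31 in CM5, where 2 were past 2-fold lower for the WT labels. Spp1, the secreted protein osteopontin that macrophages also make, gave 7.43 (6.20 to 9.05) and 4.75 (4.36 to 5.17) in CM1, and Ccn2, a matricellular growth factor, 4.44 (3.88 to 5.06) and 3.67 (3.35 to 4.01). Ccnd1, cyclin D1, gave -0.89 (-1.33 to -0.46) and -0.69 (-1.05 to -0.33).

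Genes whose levels ran most like those of 3 members were found over the 12 sums of CM1, CM4 and CM5 in the 4 libraries, by Pearson's r of log2(CPM + 10) among 9758 genes. For Atf3 they were Lmcd1 (r = 0.98), a LIM domain cofactor gene of muscle, Klf6 (0.97) and Ier3 (0.96). For Runx1 they were Dera (0.96), Unc5b (0.95) and Cdc16 (0.93). For Jund they were Snrpg, Selenok and the ribosomal protein gene Rpl10a (0.96 each). The sums share libraries and differ in depth, so these values describe likeness only.

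Gene models bear on some of these counts. In the GENCODE annotation Jun overlapped the antisense gene Junos, Junb overlapped Prdx2, Jund Gm11175, Atf3 Gm24748 and Runx1 Gm26626, each on the opposite strand, and whether counting used the strand is not given in the sources used here. If it was not used, UMIs from the overlapping stretches of these 5 members and of their partners could not be told apart. Jun and Jund have no intronic bases in that annotation, so that, unlike the other members, they gain no UMIs from intronic reads.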

How the data were processed

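The authors deposited 1 matrix of raw UMI counts per gene and nucleus, without normalization, and 1 line of annotation per nucleus, with its population label and the percent of its UMIs from the mitochondrial genome. Per the labels and the study's methods, reads of the 10x Genomics 3′ libraries were aligned with Cell Ranger to the mm10/GRCm38 pre-mRNA reference, introns included, doublets were removed with Scrublet, and cardiomyocyte nuclei were kept and labelled with Seurat 3. The labels and methods name different kit versions. The 11 other deposited columns were not used. Groups came from the sample titles. The UMIs of each library and population were added up and given as CPM. Ratios carry exact conditional binomial 95% intervals, CPM Poisson and shares Clopper-Pearson intervals. A sum of 0 was set to 3 UMIs, no ratio was formed where both sums held 3 or fewer, and comparisons used genes with at least 20 UMIs over both sums. CM2 was left out for its few nuclei. The ratio calculation was tested on simulated data. Python 3.11.15, scipy 1.17.1 and edgeR 4.0.16 (TMM factors only) were used. Named genes were the members, Nfe2l1, and in each list the 2 highest and 1 lowest CM1 ratio of the WT labels with at least 50 UMIs, and the 3 genes most like Atf3, Runx1 and Jund. Members and lists were chosen with earlier results of these data known. Of the other marker lists, fibroblast genes were past 2-fold higher in 0 of 7, endothelial in 1 of 7, red blood cell in 0 of 5, mural in 0 of 3 and cardiomyocyte genes in 0 of 10 in CM1 of the WT labels. In CM5 fibroblast genes were in 0 of 5 (WT labels) and 0 of 6 (KO labels) and endothelial genes in 1 of 5 and 1 of 6.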

Additional observations from a re-analysis of the deposited data

Results flagged for a closer look

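The ratios of MI over Sham of the WT and KO labels lay on opposite sides of 0 for 3 measurements, with 1 library per group and the difference not tested. They were Jun in CM1 (-0.36 for the WT labels and 0.01 for the KO labels), Jun in CM4 (-0.33 and 0.54) and Jund in CM4 (-0.32 and 0.54), and for each of them the KO-labelled interval included 0.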

How the results depend on the processing

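No paired analysis was possible because each group held 1 library. Of the ratios of single members recomputed under 9 alternatives, 425 of 444 values were counted as unchanged. They lay within the counting interval of the reported value, were lower bounds under it, or lay close to or above a reported bound. Among them were 58 of 58 under each of TMM, size factors, equal weighting of nuclei and a total without the mitochondrial genome. TMM, size factors and that total shift all ratios of a pair alike, by little beside most intervals. Their result was therefore close to fixed in advance. The CM1 count for the WT labels, 4 members past 2-fold, was 1 with nuclei thinned to 1000 UMIs, 2 without the 10 highest nuclei, 0 with no myeloid UMI (where 4 members could be compared) and 1 with a minimum of 50 UMIs. For the KO labels the count of 2 was 1 in the nuclei of the commonest transferred label, 1 with no myeloid UMI, 1 with a minimum of 50 UMIs, 7 over all nuclei and 5 at 1.5-fold. The CM4 medians of -0.32 and 0.54 became 1.20 and 1.59 with no minimum of UMIs. The CM5 median of the WT labels reversed to -0.20 with no myeloid UMI, where only 1 member reached 20 UMIs, and was 0.79 to 1.01 with the commonest transferred label, a minimum of 50 UMIs or without the 10 highest nuclei. Several of the values behind 0.79 and 1.01 were lower bounds. Myc in CM1 of the WT labels reversed to -0.73 with no myeloid UMI, from 7 UMIs in all. Nuclei with no myeloid UMI are few, and leaving out the 10 highest nuclei empties several Sham sums, so that 18 of its 44 values were lower bounds. Depth limits all members but Jun, Jund and Klf6.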
